A study of Mus musculus with 8 samples.

Results

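The genes described here carry the guanylin signal in the colon and the chloride secretion that it drives. They are the hormones Guca2a (guanylin) and Guca2b (uroguanylin), their receptor Gucy2c, the kinase Prkg2, the anion channels Cftr and Best2, the chloride cotransporter Slc12a2 and the potassium channel subunits Kcnq1 and Kcne3. These 9 members were chosen by gene symbol from the 52143 genes of the table, with no threshold on a measured value. The choice was made with earlier results of these data known. RNA was sequenced from distal colon of female mice in 8 samples, 4 per group. Control mice carried Villin1-Cre-ERT alone, a tamoxifen-dependent Cre recombinase under a promoter active in intestinal epithelium. Siglec-XII mice (SIGLEC12-Villin1-Cre-ERT) carried in addition a heterozygous floxed human SIGLEC12 cassette at the ROSA26 locus, with a CAG promoter and an EGFP stop between loxP sites, and the controls were littermates. Both groups received tamoxifen daily for 5 days (10 mg/ml) from an age of 8 weeks, and colons were taken 7 days after the last dose, on day 12. The question was whether expression of Siglec-XII in epithelium altered the colon transcriptome before any carcinogen was given. The sample labels list 4 samples per group where the design text speaks of fewer mice, so p-values measure only the spread between these samples, which may in part be technical.

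In the colonic epithelium, guanylin and uroguanylin are released toward the lumen and bind guanylyl cyclase C, the product of Gucy2c, which makes cGMP. The cGMP-dependent kinase II, encoded by Prkg2, can phosphorylate the apical chloride channel CFTR, and cGMP also reaches CFTR through protein kinase A when phosphodiesterase 3 is inhibited. Chloride leaving through CFTR is replaced across the basolateral membrane by NKCC1 (Slc12a2), and the KCNQ1/KCNE3 potassium channel keeps the driving force. Bacterial heat-stable enterotoxin acts on the same receptor and causes secretory diarrhea.

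The hormones differ in abundance here although their genes are close relatives. On GRCm38, Guca2a lies on the plus strand at chr4:119637704-119639471 and Guca2b on the minus strand at chr4:119656607-119658954, with 17135 bases between them. The last 48 coding bases before the stop codon, which encode the end of the prohormone from which the active peptide is cut, lie in exon 3 of 3 in both genes (chr4:119639225-119639272 and chr4:119656795-119656842, GENCODE M21). They are shown because both hormones bind the receptor through this end, and capitals mark bases identical in both.
Guca2a: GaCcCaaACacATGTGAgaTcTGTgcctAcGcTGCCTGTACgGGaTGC
Guca2b: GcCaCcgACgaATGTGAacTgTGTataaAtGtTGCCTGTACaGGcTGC
In this stretch 31 of 48 bases (64.6%) were identical, yet the transcripts of both genes shared 0 windows of 31 bases, so a read matching such a window points to one gene. For the other members the share of such windows also present in another gene was at most 2.4%, in Kcnq1, whose gene overlaps the antisense Kcnq1ot1.

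Values were deposited as log2(TPM + 1), where TPM is a gene's share of the library's transcripts after scaling for transcript length, so levels of different genes can be compared. TPM does not carry the read depth, so the counting error behind each value is unknown. Over the 13164 tested genes, those that reached 1 TPM in 4 or more samples, pairs of samples correlated at 0.945 to 0.987. Siglec-XII 3 and Siglec-XII 4 stood apart, with median log2 levels 0.23 and 0.37 below the mean of the sample medians, where the other 6 samples lay between -0.02 and 0.18. The median difference between the groups over all tested genes was -0.15 on the log2 scale, and 21.9% of genes were above 0. Differences of members are therefore set beside that shift, and beside values without Siglec-XII 3 and 4. Markers of epithelium were high in every sample (summed TPM 14280 to 19140 in controls and 14580 to 18740 in Siglec-XII), and 0 of the 9 tested passed the test. Smooth muscle markers summed to 622.6 to 1003 TPM in controls and 303.3 to 650.7 in Siglec-XII, with 6 of 6 lower in mean and 3 at an unadjusted p of at most 0.05, where 78.1% of all tested genes were lower and 8.87% had such a p. Endothelial markers were low, at a summed 2.07 to 3.32 TPM in controls and 1.24 to 1.52 in Siglec-XII, and were the marker list whose sums did not overlap. Of these 3 markers 1 reached the filter, Pecam1 (1.78 to 2.48 TPM in controls, 0.985 to 1.18 in Siglec-XII). It had no overlap between the groups, as was so for 5.11% of all tested genes. Transgene sequences were not analysed here, so the labels were not checked against SIGLEC12 itself.

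**Figure D1:**
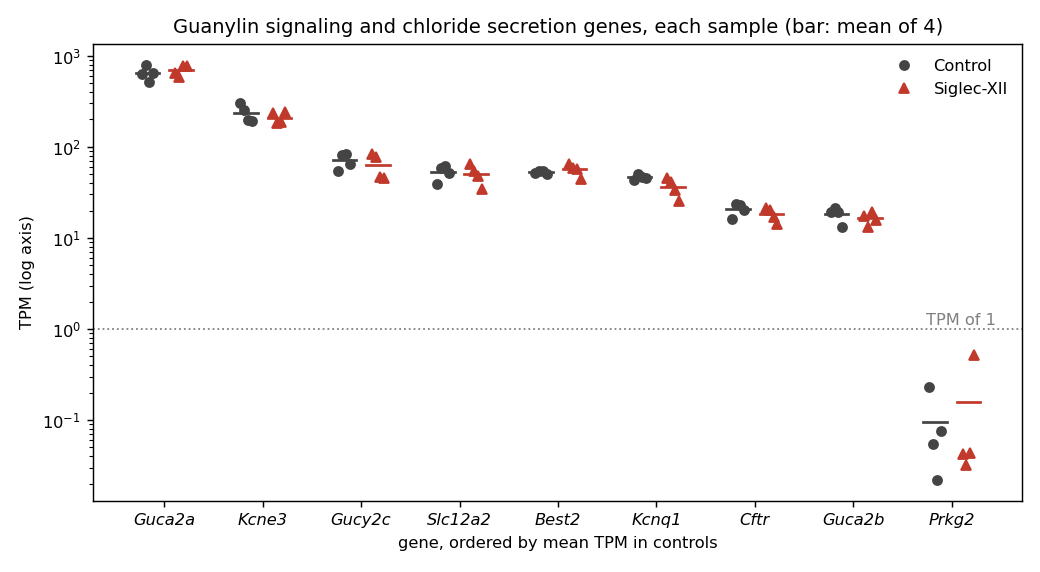
TPM on a log axis of the 9 members in each of the 4 control samples (circles) and 4 Siglec-XII samples (triangles), with the mean of each group as a bar and genes ordered by their control mean. Guca2a leads at a control mean of 650.0 TPM, Prkg2 lies below 1 TPM in every sample, and the groups overlap for each gene.

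Guca2a was the most abundant member. It stood at 631.4, 798.1, 516.9 and 653.4 TPM in controls 1 to 4, and at 642.2, 584.0, 776.4 and 770.8 TPM in Siglec-XII 1 to 4. Its control level exceeded that of 98.2% of the tested genes, and the groups overlapped. Guca2b stood at 19.31, 21.51, 19.05 and 13.24 TPM in controls and at 17.28, 13.28, 19.33 and 15.87 TPM in Siglec-XII. In every sample Guca2a was therefore far above Guca2b, by 27.1-fold at the least (Control 3) and 49.4-fold at the most (Control 4). The log2 ratio of Guca2b to Guca2a was -5.08 ± 0.35 (SD, n = 4) in controls and -5.32 ± 0.16 (SD, n = 4) in Siglec-XII. This ratio differed by -0.24 between the groups, within the spread of the samples (exact permutation test, two-sided, p = 0.314, adjusted over 5 ratios 0.486).

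Gucy2c was moderately abundant, at 54.85, 81.24, 82.88 and 65.57 TPM in controls and 82.91, 77.19, 47.16 and 44.97 TPM in Siglec-XII. The Siglec-XII samples formed a higher pair, within or at the upper edge of the control range, and a lower pair (Siglec-XII 3 and 4) below every control. The gene lies on chromosome 6 (chr6:136697284-136781765, minus strand, GRCm38), 23.6 Mb from the ROSA26 locus that holds the cassette.

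Prkg2, the kinase that would carry the signal from cGMP to CFTR, was close to undetected. Its TPM was 0.232, 0.0540, 0.0219 and 0.0755 in controls and 0.0419, 0.0319, 0.0434 and 0.513 in Siglec-XII, all below 1, so it did not enter the main test. With no filter on low values, its log2 difference was 0.06 (limma, adjusted p = 0.852). The alternative kinase Prkg1 and the other guanylyl cyclases Npr1, Npr2, Gucy1a1 and Gucy1b1 were also low, with no sample above 1.49 TPM in any of them (Npr1 in Control 2) and a summed TPM of 1.88 to 2.83 in controls and 1.19 to 1.91 in Siglec-XII, and 0 of these 5 could be tested. Gucy2c was thus between 40.4 and 273-fold above Npr1, the natriuretic peptide receptor cyclase, over the 8 samples.

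The anion channels both had clear transcript levels. Cftr, the apical channel, stood at 16.26, 23.84, 22.85 and 20.27 TPM in controls and 21.10, 20.31, 16.87 and 14.11 TPM in Siglec-XII, with overlapping groups. Best2, bestrophin-2, a basolateral channel linked to bicarbonate transport in colonic goblet cells, was more abundant than Cftr in each sample, by 2.28 to 3.43-fold. It stood at 51.68, 54.39, 54.75 and 50.06 TPM in controls and at 65.65, 58.06, 57.80 and 44.75 TPM in Siglec-XII. In Best2, 3 Siglec-XII samples lay above the highest control and the other, Siglec-XII 4, below the lowest. Goblet cell markers summed to 9798 to 11840 TPM in controls and 11090 to 15220 in Siglec-XII, and 0 of 7 passed the test. Their part in the Best2 values was not tested.

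On the basolateral side, Slc12a2 stood at 39.17, 58.68, 62.36 and 51.24 TPM in controls and 65.35, 54.17, 47.96 and 34.28 TPM in Siglec-XII. Siglec-XII 1 was the highest of the 8 samples and Siglec-XII 4 the lowest. Kcnq1, the pore subunit, stood at 43.49, 50.91, 46.23 and 45.75 TPM in controls and at 45.04, 41.37, 33.53 and 25.68 TPM in Siglec-XII. Siglec-XII 2, 3 and 4 were below the lowest control, and Siglec-XII 1 was within the control range. Kcne3, the accessory subunit that holds KCNQ1 open, was 4.18 to 9.3-fold more abundant than Kcnq1, at 304.8, 255.5, 196.8 and 191.1 TPM in controls and 234.2, 180.8, 186.0 and 238.8 TPM in Siglec-XII. Its highest value was Control 1, and the groups overlapped.

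The order of the control means was Guca2a, Kcne3, Gucy2c, Slc12a2, Best2, Kcnq1, Cftr, Guca2b and Prkg2. Neighbors in this order were compared within samples over all 8 samples by an exact permutation test (sign flips of the within-sample log2 differences, two-sided, smallest possible p 0.00781). Of the 8 neighboring pairs, 6 differed, with adjusted p of 0.0125 for 5 pairs and 0.0208 for Gucy2c and Slc12a2. The controls that set the order are among the 8 samples tested. The direction was therefore favored in advance, and these p-values are not an independent check of the order. Slc12a2 and Best2 did not differ beyond their spread (exact p = 0.242, Slc12a2 higher in 3 of 8 samples), nor did Cftr and Guca2b (exact p = 0.227, Cftr higher in 5 of 8 samples).

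Between the groups, no member passed the test. Of the 8 tested members, 0 had an adjusted p of at most 0.05 (limma with Benjamini-Hochberg adjustment), where 0.038% of all tested genes did. At an unadjusted p of at most 0.05 the count was 1 of 8, Kcnq1, against 8.87% of all tested genes. In 0 of 8 members did the groups fail to overlap, against 5.11% of all tested genes. The 8 members had a median difference of -0.15, equal to 2 decimals to the shift of all genes, with 2 of 8 above 0.

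Guca2a differed by 0.10 on the log2 scale (95% confidence interval -0.23 to 0.43, limma, adjusted p = 0.746) and Guca2b by -0.14 (-0.52 to 0.25, adjusted p = 0.702). For the receptor Gucy2c, the difference was -0.21 (-0.72 to 0.31, limma, adjusted p = 0.669). The channels gave -0.19 for Cftr (-0.57 to 0.18, adjusted p = 0.591) and 0.09 for Best2 (-0.18 to 0.36, adjusted p = 0.729). Slc12a2 gave -0.08 (-0.56 to 0.39, adjusted p = 0.856) and Kcne3 -0.16 (-0.54 to 0.22, adjusted p = 0.653). The interval of each of the 8 lay within a log2 change of 1 in either direction, reaching from -0.75 to 0.43 at its extremes.

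Kcnq1 had the largest difference of the 8, -0.38 (SE 0.17, 95% confidence interval -0.75 to -0.00074, unadjusted p = 0.0496, limma, adjusted p = 0.515). Without Siglec-XII 3 and 4 it was -0.11 (limma, adjusted p = 0.991), and after each sample was centered on its median it was -0.16 (limma, adjusted p = 0.479). Centering on epithelium markers gave -0.34 for Kcnq1 (limma, unadjusted p = 0.017, adjusted p = 0.425). Quantile normalization gave -0.25 (limma, unadjusted p = 0.0218, adjusted p = 0.575), and array weights -0.20 (limma, unadjusted p = 0.0494, adjusted p = 0.354). After median centering, Best2 was the one member with an unadjusted p of at most 0.05, with a difference of 0.30 (unadjusted p = 0.00879, limma, adjusted p = 0.459), and without Siglec-XII 3 and 4 its difference was 0.23 (unadjusted p = 0.0428, limma, adjusted p = 0.991). With median centering 7 of 8 members were above 0, with a member median of 0.07 beside 0.06 over all genes.

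**Figure D2:**
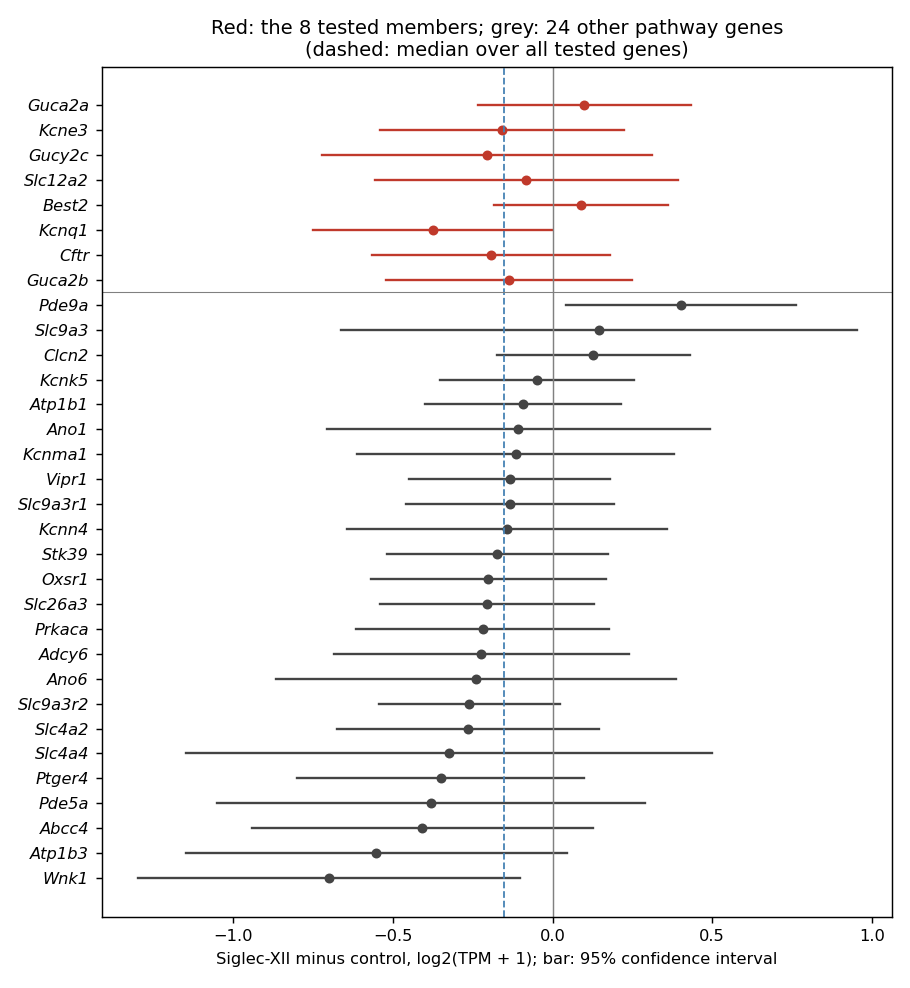
Siglec-XII minus control differences on the log2(TPM + 1) scale (horizontal axis) with 95% confidence intervals from limma for the 8 tested members (red) and 24 of the 25 other tested pathway genes (grey), and the median over all tested genes (dashed line, -0.15). The points cluster around the dashed line, and the intervals of Kcnq1, Pde9a and Wnk1 exclude 0 before adjustment.

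The ratios between partners within each library also overlapped between the groups in all 5 cases. On the log2 scale, Kcne3 to Kcnq1 was 2.30 ± 0.34 (SD, n = 4) in controls and 2.52 ± 0.46 (SD, n = 4) in Siglec-XII (exact permutation p = 0.457). Cftr to Slc12a2, exit against uptake of chloride, was -1.30 ± 0.08 and -1.41 ± 0.15 (exact permutation p = 0.257). Best2 to Cftr was 1.31 ± 0.20 in controls and 1.60 ± 0.10 in Siglec-XII, a difference of 0.28 with Control 1 inside the Siglec-XII range (exact permutation p = 0.114). Prkg2 to Gucy2c differed by 0.27 (exact permutation p = 0.486) and is mostly a measure of Gucy2c, since Prkg2 lies near 0. All 5 adjusted values were 0.486, and the smallest p that 4 against 4 samples allow is 0.0286.

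**Figure D3:**
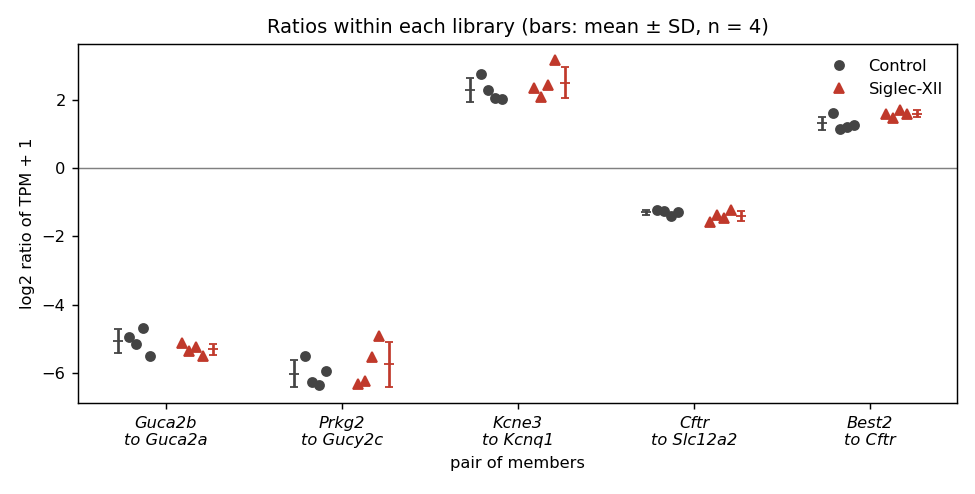
Log2 ratios of TPM + 1 between 5 pairs of members in each sample (circles, control; triangles, Siglec-XII), with the mean and SD of each group (n = 4) beside the points. The groups overlap in every pair, and Prkg2 to Gucy2c has the widest spread among the Siglec-XII samples (SD 0.66).

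Across the 8 samples, Gucy2c, Cftr and Slc12a2 correlated with each other, and Kcnq1 with Gucy2c and Cftr. Of the 36 member pairs, 7 had a Pearson correlation with an adjusted exact permutation p of at most 0.05, and 5 of these were positive, the pairs just named. Slc12a2 and Kcnq1 did not pass (r = 0.745, rho = 0.690, exact permutation p = 0.0340 and 0.0694, adjusted 0.122 and 0.227). Cftr and Slc12a2 correlated at r = 0.928 (exact permutation p = 0.000918, adjusted 0.0196) and rho = 0.905 (exact permutation p = 0.00456, adjusted 0.0821), with r = 0.759 when the 2 samples farthest from the median were left out. Gucy2c and Cftr gave r = 0.936 (exact permutation p = 0.00109, adjusted 0.0196) and rho = 0.881 (exact permutation p = 0.00724, adjusted 0.0869), with r = 0.898 without the 2 farthest samples. Gucy2c and Slc12a2 gave r = 0.890 (exact permutation p = 0.00355, adjusted 0.0287) and rho = 0.976 (exact permutation p = 0.000397, adjusted 0.0143), with r = 0.966 without them. By rho, this was the 1 pair of 36 that passed. The mean log2 level of the epithelium markers was also lowest in Siglec-XII 4 (9.71), Control 1 (9.72) and Siglec-XII 3 (9.90). It was highest in Control 2 (10.23), Control 3 (10.22) and Siglec-XII 1 (10.22), with Siglec-XII 2 at 10.16 and Control 4 at 9.96. The part of this marker level in the correlations was not tested.

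Kcnq1 correlated with Cftr at r = 0.861 and rho = 0.833 (exact permutation p = 0.00399 and 0.0154, adjusted 0.0287 and 0.138), and r was 0.950 without the 2 farthest samples. Its correlation with Gucy2c, r = 0.824 and rho = 0.738 (exact permutation p = 0.00625 and 0.0458, adjusted 0.0375 and 0.227), fell to 0.341 without Siglec-XII 3 and 4 and rests on those samples. The negative pairs, Prkg2 with Slc12a2 (r = -0.884, rho = -0.786, exact permutation p = 0.00387 and 0.0279, adjusted 0.0287 and 0.168) and with Cftr (r = -0.817, rho = -0.690, exact permutation p = 0.00918 and 0.0694, adjusted 0.0472 and 0.227), dropped to r = -0.414 and -0.104 without Control 1 and Siglec-XII 4. No pair with a ligand passed: over the 15 pairs with Guca2a or Guca2b, the largest absolute r was 0.532 (Guca2a and Gucy2c, negative) and the lowest adjusted exact permutation p was 0.423. Without Control 2 and Control 3, the samples farthest from the median of Guca2a, its r was -0.827 with Gucy2c and -0.806 with Kcnq1. These were its most extreme values, and with the other members r ranged from -0.695 (Cftr) to 0.468 (Prkg2). The remaining samples include Siglec-XII 3 and 4, and these r were not tested.

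After each sample was centered on its own median, 0 of 36 pairs passed (lowest adjusted exact permutation p = 0.245) and 5 had an unadjusted p of at most 0.05. Of these 5, Cftr and Slc12a2 (r = 0.83, exact permutation p = 0.00987) had also passed before centering. The other 4 were Guca2a with Prkg2 (r = 0.791, exact permutation p = 0.0136), Guca2b with Kcne3 (0.710, p = 0.0495), Kcnq1 with Prkg2 (-0.787, p = 0.0458) and Kcne3 with Prkg2 (0.771, p = 0.0256). Gucy2c then correlated with Cftr at 0.673 and with Slc12a2 at 0.681 (exact permutation p = 0.0748 and 0.0729). Kcnq1 correlated at 0.135 with Cftr and at 0.338 with Gucy2c (exact permutation p = 0.740 and 0.473).

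**Figure D4:**
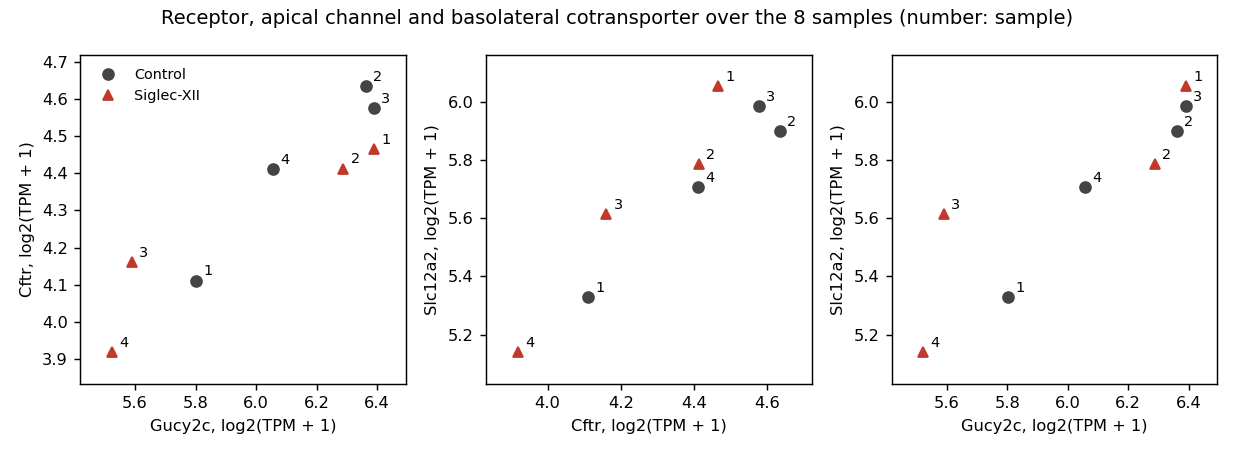
Log2(TPM + 1) of Gucy2c, Cftr and Slc12a2 plotted against each other over the 8 samples (circles, control; triangles, Siglec-XII; the number is the sample's). Control 1, Siglec-XII 3 and Siglec-XII 4 form the low end in all 3 panels, and Control 2, Control 3 and Siglec-XII 1 the high end.

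The tested genes most like a member, by Pearson's r over the 8 samples after median centering, are a description with no test, drawn from 13163 genes. For Guca2a these were Dpm2 (r = 0.991), Prkra (0.989) and Fnta (0.988), and for Guca2b Gimap9 (0.974), Ikbip (0.96) and Bambi (0.957). Gucy2c was most like Sin3a (0.998) and Vezf1 (0.985), a symbol that stands under a pair of identifiers. Cftr was most like Il17rd (0.973), Prkcsh (0.951) and Inpp1 (0.944), and Slc12a2 like Pmm2 (0.99), Itgb1 (0.985) and Spire2 (0.981).

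Of 38 other genes of the pathway, 25 could be tested, and 13 were below the filter with no sample above 2.72 TPM. In these 25, 0 had an adjusted p of at most 0.05 (limma), and 2 had an unadjusted p of at most 0.05, which is 8.0% beside 8.87% of all tested genes. The median was -0.20, with 3 of 25 above 0. After median centering it was 0.0097 with 14 of 25 above 0, and without Siglec-XII 3 and 4 it was 0.09 with 19 of 25 above 0, so its direction depended on both choices. Pde9a, the high-affinity cGMP phosphodiesterase, was the more abundant of the cGMP-specific phosphodiesterases, 10.3 to 32.1-fold above Pde5a. It stood at 116.6, 153.1, 175.0 and 177.7 TPM in controls and at 169.8, 221.1, 239.9 and 189.0 TPM in Siglec-XII. The upper 3 Siglec-XII samples exceeded every control. Its difference was 0.40 (SE 0.16, unadjusted p = 0.0330, limma, adjusted p = 0.515). It was 0.33 without Siglec-XII 3 and 4 (unadjusted p = 0.138 from limma) and 0.62 after median centering (unadjusted p = 0.00881 from limma).

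Wnk1, a kinase upstream of the regulators of NKCC1, stood at 19.58, 23.88, 21.58 and 24.35 TPM in controls and at 20.36, 18.45, 9.77 and 8.39 TPM in Siglec-XII. Siglec-XII 3 and 4 had less than the rest, and Siglec-XII 2 was also below the lowest control. The difference was -0.70 (SE 0.27, unadjusted p = 0.0266, limma, adjusted p = 0.515), and without Siglec-XII 3 and 4 it was -0.19 (unadjusted p = 0.158 from limma). It was -0.49 after median centering (limma, unadjusted p = 0.017, adjusted p = 0.459) and -0.67 after centering on epithelium markers (limma, unadjusted p = 0.00563, adjusted p = 0.425). Stk39 and Oxsr1, the kinases it acts on, differed by -0.17 and -0.20 (limma, adjusted p = 0.601 and 0.577).

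The remaining genes chosen by the smallest p in each direction were Clcn2, a chloride channel (0.13), Slc9a3, the apical sodium-hydrogen exchanger (0.15), Atp1b3, a sodium pump subunit (-0.55), and Slc9a3r2, a scaffold of CFTR and NHE3 (-0.26), each with a limma adjusted p of at least 0.515. Clcn2 differed by 0.34 after median centering (unadjusted p = 0.00349, limma, adjusted p = 0.459) and by 0.32 without Siglec-XII 3 and 4 (unadjusted p = 0.0397, limma, adjusted p = 0.991). Slc9a3r2 was the 1 gene of the 25 with no overlap, at 2.95, 2.56, 3.36 and 3.12 TPM in controls and 2.48, 2.36, 2.47 and 2.02 TPM in Siglec-XII, where 5.11% of all tested genes had none. After median centering its difference was -0.05 (limma, adjusted p = 0.889). By role, an unadjusted p of at most 0.05 was seen in 0 of 4 secretagogue genes (Adcy6, Prkaca, Vipr1, Ptger4) and 0 of 5 other anion channels and exchangers. The same held for 0 of 3 other potassium channels, 0 of 4 sodium pump and bicarbonate genes, 0 of 2 scaffolds and Slc9a3. Genes with such a p were Pde9a, 1 of 3 for cGMP breakdown and export, and Wnk1, 1 of 3 kinases of the cotransporter. Over all tested genes the share was 8.87%. The chloride-bicarbonate exchanger Slc26a3 was among the abundant genes of the pathway (410.9 to 532.2 TPM in controls and 346.5 to 552.8 TPM in Siglec-XII, with overlapping groups).

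Markers of crypt base and cycling cells, the compartment in which secretion is classically placed, summed to 68.0 to 139.8 TPM in controls and 41.95 to 97.53 in Siglec-XII. All 6 were lower in mean, as were 78.1% of all tested genes, and 3 had an unadjusted p of at most 0.05, beside 8.87% of all tested genes. Lgr5 (1.443 to 1.922 TPM in controls, 0.6287 to 1.285 in Siglec-XII) did not overlap between the groups. Nor did Ascl2 (9.084 to 15.76 TPM in controls, 4.727 to 7.817 in Siglec-XII), where 5.11% of all tested genes had no overlap. Smoc2, Mki67, Top2a and Axin2 overlapped. Surface colonocyte markers summed to 4101 to 5414 TPM in controls and 4043 to 5436 in Siglec-XII, and 0 of 4 passed. The part of these markers in the levels of the members was not tested. In RNA from many cell types together, fewer cells of a type cannot be told apart from less RNA per cell.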

How the data were processed

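RNA-seq of 8 distal colon samples (4 control, 4 Siglec-XII) was used, grouped by the sample labels. The authors deposited log2(TPM + 1) values per gene. The submitters' processing notes name kallisto 0.45.0 and GRCm38, whereas the study's methods also name an older version, a human reference and counts, which were not used here. The labels name a stranded total RNA library kit and the methods an mRNA kit. A symbol listed more than once was represented by its row of highest mean. The 13164 genes that reached 1 TPM in 4 or more samples were fitted in R 4.3.3 by limma (version 3.58.1; linear model of the groups, moderated variance with a mean-variance trend, no covariates) with Benjamini-Hochberg adjustment over all of them and a limit of 0.05. Fold changes on this scale understate changes of genes near 1 TPM. Ratios, neighboring members and correlations were tested by exact permutation in Python 3.11.15 with scipy 1.17.1, two-sided. The code was tested on simulated data. Pathway genes named in the text are up to 3 per direction with the smallest p, and genes like a member are the 3 with the highest r. The members and gene lists were chosen with earlier results of these data known. Annotation and sequences came from GENCODE M21 (GRCm38), which held 98.3% of the deposited gene identifiers. One pathway gene enters the counts but is not reported here by name. Alternatives covered filters, the pseudocount, centering, weights, the replicate block and samples left out.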

Additional observations from a re-analysis of the deposited data

Results flagged for a closer look

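One group of values had a sample far from the others. In Siglec-XII, the gap between Prkg2 in Siglec-XII 4 (0.513 TPM) and the next sample was 0.971 of the whole range of the 4 log2(TPM + 1) values. Of the 28 groups examined, chance would give 1.4 such cases, and every Prkg2 value lay below 1 TPM.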

How the results depend on the processing

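Of 288 alternatives over all results, 243 were rated as unchanged in direction and side of the threshold and 20 reversed. A count could shift slightly and still be rated as unchanged. At an unadjusted p of at most 0.05, 3 pathway genes in place of 2 were so rated with quantile normalization, median centering and the replicate block. With median centering, and without Siglec-XII 3 and 4, the member count of 1 stood for Best2 and not Kcnq1. No alternative gave a member or pathway gene an adjusted p of at most 0.05 (limma). The lowest adjusted p of any member was 0.27, for Kcnq1. Kcnq1 stayed below 0 and Best2 above 0 in all 18 settings. The count of members at an unadjusted p of at most 0.05, 1 in the report, was 0 with no filter, with a pseudocount of 0.1, with the variance not moderated and with the replicate block, 2 with quantile normalization, and 0 to 1 when a sample was left out (0 without any 1 control, Siglec-XII 3 or Siglec-XII 4). For pathway genes, 2 in the report, it was 4 with no filter, with centering on epithelium markers and with array weights, 1 with the variance not moderated, 1 without Siglec-XII 3 and 4, and 0 to 4 when a sample was left out (0 without Control 2 or Siglec-XII 3, 1 without Control 1, Control 4 or Siglec-XII 4, 4 without Siglec-XII 1).

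The median difference of the members, -0.15 in the report, was 0.0096 with quantile normalization and 0.065 with median centering. Median centering turned the differences of Guca2b (0.077), Gucy2c (0.0077), Cftr (0.019), Slc12a2 (0.13) and Kcne3 (0.054), and quantile normalization those of Guca2b (0.0545) and Slc12a2 (0.033). Array weights turned Guca2a (-0.11) and Gucy2c (0.033). Without Siglec-XII 3 and 4, Guca2a (-0.069), Gucy2c (0.19), Cftr (0.0069) and Slc12a2 (0.19) reversed. With 1 sample left out, Guca2a ranged from -0.0047 to 0.20 (reversed without Control 3) and Slc12a2 from -0.22 to 0.087 (reversed without Control 3 or Siglec-XII 4). The ratio of Prkg2 to Gucy2c ranged from -0.0099 to 0.46 and that of Kcne3 to Kcnq1 from -0.00027 to 0.38, both reversing without Siglec-XII 4. The cause of these reversals was not tested.

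In controls alone, 0 of the 8 neighboring pairs could pass, because 4 samples allow no smaller p. The number of correlated pairs was 0 with median centering and 14 with group means subtracted, where residuals are not freely exchangeable. Samples with the same number did not deviate together (r from -0.204 to 0.103, and 0 of 8 samples correlated best with their own number), so the numbers were not taken as pairing the samples. TPM carries no depth, so counting error could not be set against these spreads.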

Other observations

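Slc26a9, an anion transporter below the filter on low values and chosen here after its values were seen, stood at 2.72, 2.16, 0.146 and 2.44 TPM in controls and at 0.365, 0.342, 0.0456 and 0.196 TPM in Siglec-XII. Control 3 was the control below the highest Siglec-XII sample, and with no filter the unadjusted p was 0.0202 (limma, adjusted p = 0.682).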
